A study of Mus musculus with 4 samples.

Results

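The 2 epithelial clonal lines E1 and E2 were set against the 2 mesenchymal-like clonal lines M1 and M2, across all genes with a named probe set on Affymetrix mouse gene arrays. Membership came from the sample labels alone, and the comparison took in 4 of the 4 samples of the series, with 1 array for each line and no repeat array. All 4 lines were derived from a spontaneous mammary tumor of a female FVB mouse of the strain Tg MMTV/neu. In this strain the mammary tumor virus promoter drives the rat neu (ErbB2) oncogene in mammary epithelium. Tumor cells had been sorted for high CD24 and high neu protein (the epithelial lines) or for low CD24 and low neu protein (the mesenchymal-like lines), and each line was then grown out as a clone by limiting dilution. E1 and E2 were kept in RPMI with 20% fetal bovine serum. M1 and M2 were kept in MEGM, which is made for mammary epithelium, with 2% fetal bovine serum, bovine pituitary extract, epidermal growth factor, insulin and hydrocortisone. Line type and culture medium therefore cannot be told apart in any of the differences below. The age of the mouse is not given in the sources used here, and the 2 lines of a type are clones of a tumor, not separate animals, so that p-values measure only the spread between these clones.

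Epithelial cells are held in sheets by E-cadherin, tight junctions and desmosomes, and sort their membrane proteins to an apical and a basal face. In epithelial to mesenchymal transition, transcription factors of the Zeb, Snail, Twist and Prrx families rise, of which Zeb and Snail factors repress epithelial genes in part by binding E-box hexamers in their promoters, and cells take up migratory, matrix-producing programs. Mammary carcinomas can hold cells of both kinds, and the genes that differ between them reach well beyond the usual markers, into receptors, matrix, metabolism and defence.

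Levels are the deposited log2 values, so that a difference of 1 is 2-fold, and every difference is the mean of E1 and E2 minus the mean of M1 and M2. Of 21789 probe sets with 1 gene symbol, limma called 489 higher in the epithelial lines (2.24%) and 396 higher in the mesenchymal-like lines (1.82%), at a Benjamini-Hochberg adjusted p under 0.05 and with both lines of a type above both lines of the other. Called differences were at least 0.77 in size. As a description with no test, probe sets without overlap and at least 2-fold apart numbered 979 higher in the epithelial lines (4.49%) and 1072 higher in the mesenchymal-like lines (4.92%), and these are named 2-fold separated below. The median difference over all probe sets was -0.0012. With E1 or E2 left out, limma called 0 probe sets in either direction, with 2447 and 2524 at an unadjusted p under 0.05, whereas without M1 it called 921 and 950 and without M2 904 and 1012. An exact permutation test of 2 against 2 lines cannot go below 0.333 (two-sided), so that no exact test of a single gene is given.

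**Figure D1:**
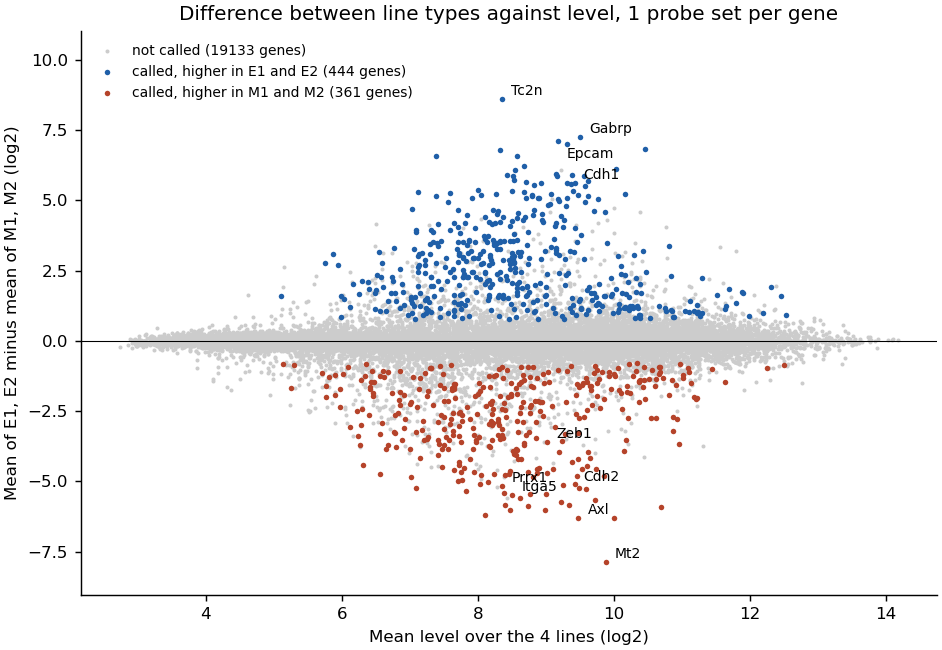
Each point is a gene, read from its brightest probe set, with the mean level over the 4 lines on the horizontal axis and the difference between line types on the vertical axis, both in log2 units. The 444 genes called higher in E1 and E2 (blue) and the 361 called higher in M1 and M2 (red) lie at middle levels, between Tc2n at the top (8.61) and Mt2 at the bottom (-7.86).

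The labels were checked first against genes of the sorted antigens and 5 markers. The sort used an antibody that the methods describe as specific for rat neu, the product of the transgene. Erbb2, the mouse counterpart of that gene, had log2 levels of 11.83, 11.95, 10.58 and 11.03 in E1, E2, M1 and M2. The difference of 1.09 was not called (limma adjusted p = 0.0828). Whether this mouse probe set also reads the transgene is not given in the sources used here. Cd24a, the other sorted antigen, did not follow the sort on the array. Its levels were 11.61, 12.15, 12.39 and 12.53 in E1, E2, M1 and M2, so that both mesenchymal-like lines lay above both epithelial lines, with a difference of -0.58 that was not called (limma adjusted p = 0.302).

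The markers followed the labels in all 4 lines. Cdh1, which encodes E-cadherin, was at 12.15, 12.32, 6.70 and 6.51 in E1, E2, M1 and M2, a difference of 5.63 ± 0.14 (SE, limma adjusted p = 0.00233). Epcam, an epithelial adhesion protein, was at 12.70, 12.76, 5.77 and 5.46, a difference of 7.12 ± 0.15 (SE, limma adjusted p = 0.00233). Both were high in E1 and E2, low in M1 and M2, and far from overlapping. Zeb1, a repressor of Cdh1, ran the other way, at 7.49, 6.96, 10.99 and 10.64, a difference of -3.59 ± 0.25 (SE, limma adjusted p = 0.0103). Prrx1, a homeobox factor of limb and craniofacial mesenchyme, was at 5.73, 5.82, 10.24 and 11.64 (-5.17 ± 0.51, SE, limma adjusted p = 0.0228). Axl, a receptor tyrosine kinase whose ligand is Gas6, was at 6.31, 6.35, 12.67 and 12.58 (-6.30 ± 0.11, SE, limma adjusted p = 0.00233). All 3 were above the epithelial lines in both M1 and M2. Other markers in common use did not separate the types to this extent: vimentin (Vim) was at 12.79, 13.10, 13.73 and 13.82, with limma adjusted p = 0.0879, and Krt8 and Krt18 lay between 13.12 and 13.69 in all 4 lines.

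The promoters of 3 of these genes and of a pair of called epithelial genes are printed here to show windows with and without the hexamer that Zeb and Snail factors bind, and the share of promoters that hold it is given for each gene set below. Each window runs from 250 bases before to 50 bases after the start of the gene, from RefSeq on GRCm38.p6, and is written 5′ to 3′ on the strand of the gene. Capitals mark the E-box CACCTG or its reverse complement CAGGTG. Rab25, which steers vesicles to the apical membrane, and Ocln, a tight junction protein, were chosen after their values were seen. The windows are chr17:87635729-87636028 (plus strand) for Epcam, chr3:88548230-88548529 (minus) for Rab25, chr13:100552669-100552968 (minus) for the first listed start of Ocln, chr7:25788684-25788983 (minus) for Axl and chr1:163313601-163313900 (minus) for Prrx1.
Epcam: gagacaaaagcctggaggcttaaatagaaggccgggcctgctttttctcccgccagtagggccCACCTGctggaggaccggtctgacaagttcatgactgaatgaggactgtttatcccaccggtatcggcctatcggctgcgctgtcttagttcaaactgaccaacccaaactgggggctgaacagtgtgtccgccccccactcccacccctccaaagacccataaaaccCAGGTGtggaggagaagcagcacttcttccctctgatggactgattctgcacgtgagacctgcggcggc
Rab25: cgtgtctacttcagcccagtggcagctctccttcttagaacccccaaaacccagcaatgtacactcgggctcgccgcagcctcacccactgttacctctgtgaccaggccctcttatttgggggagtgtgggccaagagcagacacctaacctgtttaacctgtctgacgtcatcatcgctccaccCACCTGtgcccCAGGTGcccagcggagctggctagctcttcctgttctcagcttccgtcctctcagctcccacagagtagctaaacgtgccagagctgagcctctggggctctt
Ocln: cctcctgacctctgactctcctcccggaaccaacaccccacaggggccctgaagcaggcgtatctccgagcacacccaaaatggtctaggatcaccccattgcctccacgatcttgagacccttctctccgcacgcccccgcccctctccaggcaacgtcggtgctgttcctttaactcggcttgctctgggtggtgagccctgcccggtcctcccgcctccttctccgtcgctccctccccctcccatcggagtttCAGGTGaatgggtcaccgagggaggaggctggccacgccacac
Axl: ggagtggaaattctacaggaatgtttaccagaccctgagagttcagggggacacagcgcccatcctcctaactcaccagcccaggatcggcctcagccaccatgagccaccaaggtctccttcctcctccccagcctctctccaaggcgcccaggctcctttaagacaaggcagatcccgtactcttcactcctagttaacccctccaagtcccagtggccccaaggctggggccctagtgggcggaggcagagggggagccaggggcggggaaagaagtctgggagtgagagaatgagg
Prrx1: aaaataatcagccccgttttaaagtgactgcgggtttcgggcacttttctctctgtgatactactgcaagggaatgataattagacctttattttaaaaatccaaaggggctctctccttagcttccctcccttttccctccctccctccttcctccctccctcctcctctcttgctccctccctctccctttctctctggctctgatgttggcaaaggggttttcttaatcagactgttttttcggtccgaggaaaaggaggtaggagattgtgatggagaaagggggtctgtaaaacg
The Epcam window holds 2 matches, whose first bases lie at -187 and -19 from the start, and the Rab25 window 2, at -64 and -53. The Ocln window holds 1, at 8 past the start, and the windows of Axl and Prrx1 hold 0.

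Over all genes tested, 19.6% of 19116 windows (15563 genes) held CACCTG on either strand. The share was 30.9% of 457 windows for 352 genes called higher in the epithelial lines, and 15.9% of 365 windows for 284 genes called higher in the mesenchymal-like lines. Counted by gene, 35.8% of the first set, 17.6% of the second and 22.2% of all genes had a window with a match. A pair of other E-box hexamers, chosen after the data were seen, did not show this order. CAGCTG was in 15.8% of the windows of the epithelial set, 20.5% of the mesenchymal-like set and 16.3% of all, and CACGTG in 7.22%, 8.49% and 8.26%. The median GC content of the windows was 62.0% in the epithelial set, 58.7% in the mesenchymal-like set and 57.7% over all genes, and its part in the shares was not tested. A match is a run of letters and not a measured binding site.

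The genes with the largest called differences were of several kinds. Higher in the epithelial lines by most was Tc2n, a C2 domain protein, at 12.59, 12.73, 3.93 and 4.18 in E1, E2, M1 and M2 (8.61 ± 0.14, SE, limma adjusted p = 0.00233, 390-fold). Gabrp, a GABA-A receptor subunit found in mammary epithelium, was at 13.08, 13.19, 5.75 and 6.01, and Wfdc18, a secreted whey acidic protein family member, at 12.63, 12.98, 5.59 and 6.04. Trf, the iron carrier transferrin, was at 13.85, 13.88, 7.85 and 6.23. In each gene the epithelial lines sat close together and far above the mesenchymal-like lines. St8sia6, a sialyltransferase, Stox2, a winged helix protein, P3h2, a prolyl hydroxylase of basement membrane collagen, and Igfbp5, an insulin-like growth factor binding protein of the involuting mammary gland, followed with differences of 6.79, 6.58, 6.22 and 5.96.

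Higher in the mesenchymal-like lines by most was the metallothionein Mt2, at 5.85, 6.05, 13.59 and 14.02 (-7.86 ± 0.20, SE, limma adjusted p = 0.00233). Pmp22, a myelin and epithelial membrane protein, was at 6.67, 7.06, 13.32 and 12.98, and Lgals1, the glycan-binding galectin-1, at 8.56, 6.90, 13.67 and 13.66. Msln, the mesothelial surface protein mesothelin, was at 6.37, 6.34, 12.07 and 12.10. Both mesenchymal-like lines were high for all 4 genes, and E1 lay above E2 for Lgals1. Mcpt8, a protease gene known from basophils, was at 5.07, 5.85, 12.36 and 10.59. The hyaluronan receptor Layn, the lymphatic matrix protein Ccbe1, the tubulin Tubb6 and the serine protease Htra1 had differences of -5.87, -5.86, -5.67 and -5.58.

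**Figure D2:**
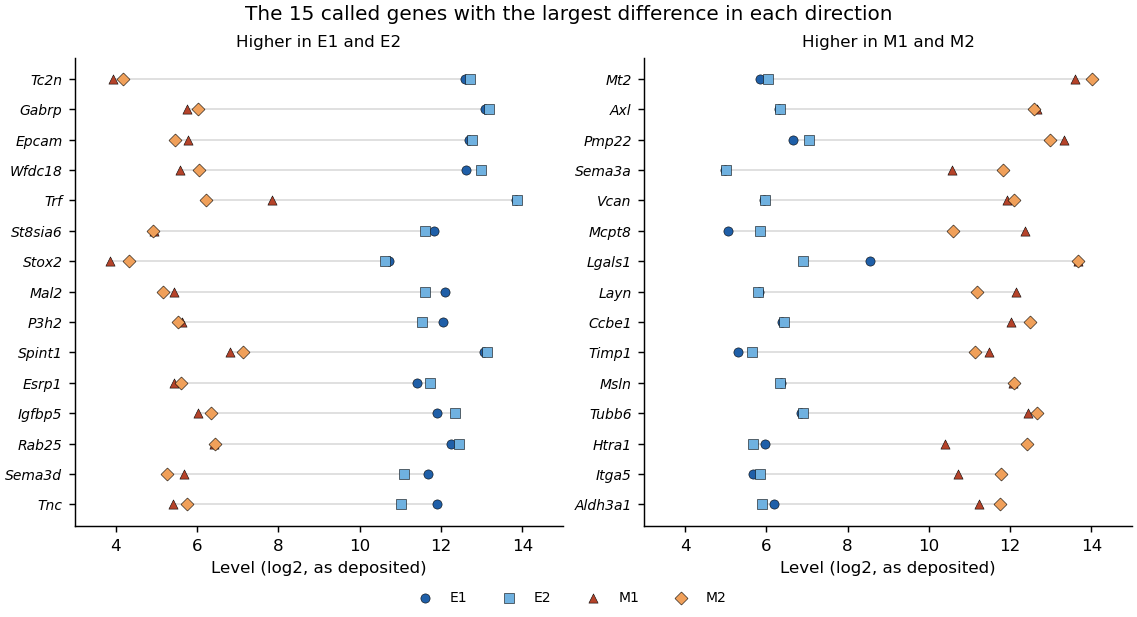
Log2 levels in E1 (circles), E2 (squares), M1 (triangles) and M2 (diamonds) of the 15 called genes with the largest difference in each direction, 1 gene per row with a line from its lowest to its highest value. The epithelial and the mesenchymal-like values do not overlap in any row, and Lgals1, Trf, Mcpt8 and Htra1 show the widest gaps between lines of a type.

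Sets of genes were then read from 59 lists of pathways, families and cell types, each described by how many measured members were called or 2-fold separated and by its median difference. Counts and shares of calls are to be read against all probe sets, 2.24% called higher in the epithelial and 1.82% in the mesenchymal-like lines. The genes of epithelial junctions were high in E1 and E2. Of 22 measured tight junction and polarity genes, 12 were called higher in the epithelial lines and 0 in the other direction, against 2.24% and 1.82% of all probe sets, and the median difference was 2.03. Claudin Cldn7 was at 11.55, 11.12, 5.77 and 6.28, Cldn3 at 11.88, 12.17, 7.29 and 7.49, and the tricellular junction protein Ildr1 at 11.41, 11.42, 6.47 and 6.23. Marveld3 and Ocln, tight junction membrane proteins, had differences of 4.28 and 4.21. The scaffold Tjp1, named like Cldn1 after its values were seen, showed no such gap, at 11.21, 11.22, 11.16 and 11.04 (limma adjusted p = 0.696). Cldn1 was split within the mesenchymal-like type, at 11.90, 12.19, 10.82 and 6.30, and was not called.

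Desmosomes, which anchor keratin filaments between cells, differed likewise. Of 13 members, 6 were called higher in the epithelial lines (46.2%), among them the desmosomal cadherin Dsg2 (10.87, 10.89, 5.61 and 5.71) and the plaque protein Dsp (11.34, 11.39, 6.19 and 6.27). Periplakin (Ppl), which links keratins to the cornified envelope, was called in the opposite direction, at 8.33, 8.74, 10.79 and 10.84 (limma adjusted p = 0.0142). Of the keratins themselves 1 of 16 was called (6.25%), Krt7, a keratin of simple epithelia, at 12.82, 12.72, 8.05 and 7.04. The basal keratins Krt5 and Krt14 lay between 6.39 and 6.73 in all lines, close to the 95th percentile of olfactory receptor probe sets, 6.26, which served as a guide to low levels. Below that level in all 4 lines lay 6 of the 16 keratins, where a difference could hardly be seen.

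Genes of apical traffic and surface proteolysis were also called mostly in the epithelial direction. Of 17 vesicle traffic genes, 7 were called higher in the epithelial lines (41.2%) and 1 lower (5.88%). Mal2, which carries proteins across the cell to the apical face, was at 12.10, 11.62, 5.43 and 5.15, and Rab25 at 12.25, 12.43, 6.41 and 6.45. The epithelial clathrin adaptor Ap1m2 and the motor Myo5b had differences of 4.65 and 3.62, whereas Sytl4, a Rab27 effector of granule secretion, was called higher in M1 and M2 at 5.84, 5.96, 7.02 and 6.95. Among 16 membrane serine proteases and inhibitors, 6 were called higher in the epithelial lines (37.5%) and 0 lower. These hold the protease matriptase, St14 (12.23, 12.43, 6.64 and 7.00), its activator and partner prostasin, Prss8 (10.98, 11.22, 7.02 and 6.55), and its inhibitor Spint1 (13.06, 13.14, 6.81 and 7.13). Enzyme and inhibitor were thus high in the same 2 lines. Of 18 channels, transporters and connexins of epithelia, 3 were called higher in the epithelial lines (16.7%), led by the potassium channel Kcnk1 (11.65, 11.75, 6.74 and 6.55). The connexin Gjc1 (5.71, 5.89, 8.10 and 7.67) was the 1 called lower (5.56%).

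Transcription and splicing regulators of epithelium were called higher in E1 and E2 for 8 of 22 members (36.4%) and lower for 1 (4.5%). Their median difference was 1.31, with 13 and 2 members 2-fold separated. The splicing regulator Esrp1, which sets epithelial exon choice, was at 11.42, 11.74, 5.43 and 5.61. Elf5, a factor of the alveolar and luminal progenitor lineage, was at 11.06, 11.71, 5.79 and 5.56, Tfap2c at 11.76, 11.69, 6.37 and 5.87, and Sox10, known in neural crest and in mammary progenitors, at 12.19, 12.38, 7.18 and 7.30. All 4 were at or below 7.30 in M1 and M2 and above 11 in E1 and E2. Klf4, a factor of differentiating epithelium, was called the other way, at 6.74, 6.53, 10.13 and 10.05 (-3.46 ± 0.13, SE, limma adjusted p = 0.00288). Sox9 was at 11.26, 11.36, 12.15 and 12.61, 2-fold separated in the same direction as Klf4 but not called.

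Of 11 genes that mark luminal mammary cells, 5 were called higher in the epithelial lines. Besides Epcam, Wfdc18 and Elf5, these were the stem cell factor receptor Kit (11.37, 11.69, 5.75 and 6.01) and the membrane protein Prom1 (9.86, 10.28, 5.72 and 5.50). The estrogen receptor Esr1 was at 6.58, 6.61, 8.60 and 7.45, with both mesenchymal-like lines above both epithelial lines, and was not called. Of 19 luminal, hormone and milk genes 0 were called, and the casein Csn3 was at 12.95, 12.93, 10.73 and 12.86. Of 10 myoepithelial markers, among them Krt5, Krt14, Acta2 and Trp63, 0 were called and 0 were 2-fold separated. Over all probe sets, 2.24% and 1.82% were called and 4.49% and 4.92% were 2-fold separated. In a list of 10 genes, counts of 0 thus cannot tell whether this lineage differs between the types. Krt17 and Cnn1 lay below the olfactory receptor level in all lines and Krt5 and Krt14 close to it, where a difference could hardly be seen.

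Cell adhesion families divided between the types, with different members on each side. In the cadherin family of 28, Cdh1 was called higher in E1 and E2, and Cdh2, which encodes N-cadherin, was called higher in M1 and M2, at 7.75, 5.99, 12.22 and 11.73 (limma adjusted p = 0.0428), along with the protocadherin Pcdh9 (5.52, 5.48, 9.55 and 10.32). Of 23 adhesion proteins of the immunoglobulin family, 6 were called higher in the epithelial lines and 3 in the mesenchymal-like lines. Ceacam1, a luminal surface protein, was at 12.35, 12.57, 7.61 and 5.94 and Nrcam at 10.58, 10.29, 6.21 and 6.22, while the neural adhesion protein Ncam1 was at 6.14, 6.42, 11.94 and 11.51 and Vcam1, which binds leukocyte integrins, at 5.66, 5.75, 7.69 and 8.32. A pair of cell adhesion proteins best known from neurons, Nrcam and Ncam1, thus stood on opposite sides.

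Integrins and laminins, the receptors and ligands of basement membrane, gave 5 called genes in the epithelial direction (15.6%) and 2 in the other (6.25%), of 32. The fibronectin receptor subunit Itga5 was at 5.68, 5.86, 10.71 and 11.77 (-5.47 ± 0.39, SE, limma adjusted p = 0.0111). Itgb3, which pairs with the alpha v subunit, went the other way, at 10.82, 10.92, 6.33 and 6.29, as did Itgb6 (8.50, 7.75, 4.73 and 5.22) and Itgb8 (10.87, 10.54, 7.87 and 7.30), which activate latent TGF-beta. The laminin chain Lama4 was also high in E1 and E2, at 11.35, 10.96, 6.42 and 6.60.

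The extracellular matrix lists had medians of -0.04 (28 collagens), -0.04 (36 matrix glycoproteins) and -0.03 (27 proteoglycans and hyaluronan genes). Their 2-fold separated members leaned in different directions. Higher in the epithelial and in the mesenchymal-like lines were 6 (21.4%) and 2 (7.14%) collagens and 3 (8.33%) and 6 (16.7%) glycoproteins. For proteoglycans and hyaluronan genes these were 1 (3.70%) and 6 (22.2%), against 4.49% and 4.92% of all probe sets. Among collagens, 4 were called higher in the epithelial lines (14.3%, against 2.24% of all probe sets) and 1 in the mesenchymal-like lines (3.57%, against 1.82%). The basement membrane chains Col4a1 (10.32, 9.86, 7.47 and 7.28) and Col4a2 (10.31, 9.67, 6.93 and 7.10) and the cartilage type chain Col9a1 (11.001, 10.51, 7.68 and 7.40) were high in E1 and E2, and Col8a1, a network collagen of vessel walls, was high in M1 and M2 (6.80, 6.85, 11.32 and 11.47). The fibrillar chains Col1a1, Col1a2 and Col3a1 lay between 7.15 and 7.73 in all 4 lines. Tenascin C, Tnc, a matrix protein of wounds and tumor stroma, was at 11.89, 11.01, 5.40 and 5.75 and thus high in the epithelial lines. Fibulin Fbln2 was at 6.89, 7.01, 12.64 and 11.84. The latent TGF-beta binding proteins were divided, with Ltbp2 at 10.46, 10.29, 6.69 and 6.85 and Ltbp4 at 7.57, 7.49, 9.45 and 9.41.

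Versican (Vcan), a large proteoglycan that binds hyaluronan, was at 5.96, 5.98, 11.92 and 12.08 (-6.03 ± 0.12, SE, limma adjusted p = 0.00233), and was the proteoglycan called higher in the mesenchymal-like lines. Agrin (Agrn), a heparan sulfate proteoglycan of basement membranes, was the one called in the epithelial direction, at 11.10, 11.06, 8.56 and 9.11. Of 37 matrix proteases and inhibitors, 3 were called higher in E1 and E2 (8.11%) and 2 in M1 and M2 (5.4%). Members 2-fold separated in these directions numbered 5 (13.5%) and 10 (27.0%). The metalloprotease inhibitor Timp1 was at 5.31, 5.64, 11.49 and 11.14 and the metalloprotease Mmp19 at 7.18, 6.10, 10.93 and 11.39. The membrane metalloprotease Mmp16 (9.71, 8.84, 6.06 and 6.28) and the aggrecan-cleaving Adamts4 (10.01, 10.79, 7.53 and 7.42) and Adamts5 (8.31, 7.95, 5.37 and 5.80) were the 3 on the epithelial side.

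Transcription factors of mesenchyme were called higher in M1 and M2 for 6 of 30 members (20.0%) and in the other direction for 2 (6.67%). Besides Prrx1 and Zeb1, Twist1 was at 6.30, 6.24, 9.27 and 9.99. The remaining 3, named after their values were seen, were Zeb2 (8.32, 7.97, 10.54 and 10.95), Twist2 (6.96, 7.09, 9.75 and 9.11) and Hmga2 (10.03, 10.37, 11.92 and 12.56). Snai2 was at 6.03, 5.57, 11.12 and 9.39 and was not called (limma adjusted p = 0.0541). Members on the epithelial side were Sox11, a factor of embryonic progenitors, at 8.70, 8.57, 5.93 and 5.28, and Snai3 at 7.73, 7.37, 6.26 and 6.29. The list held called factors in both directions, and its median difference was -0.09.

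**Figure D3:**
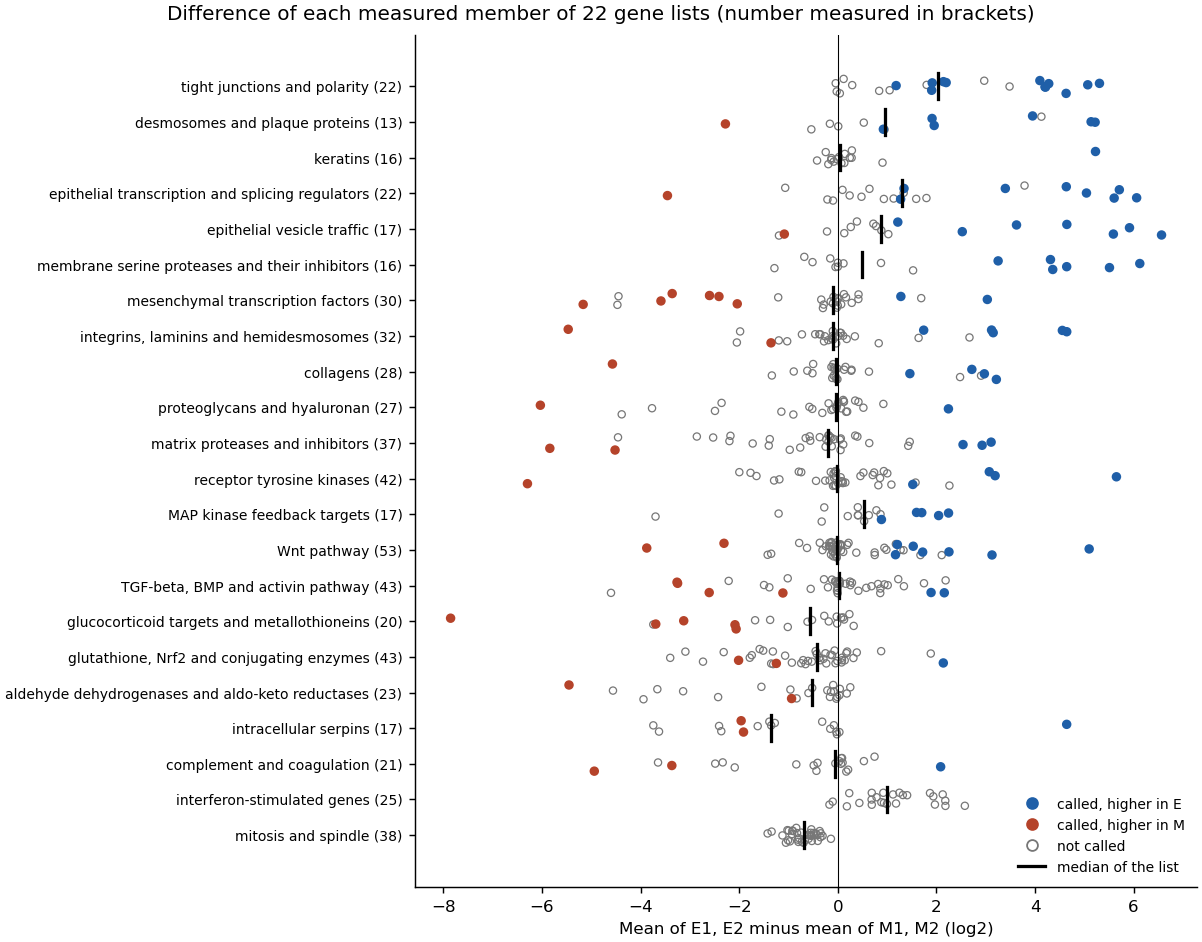
Each point is a measured member of 1 of 22 lists, with the difference between line types in log2 units on the horizontal axis, filled where limma called it (blue higher in E1 and E2, red higher in M1 and M2) and open where it did not, and a black bar at the median of the list. Tight junction genes have the highest median (2.03) and intracellular serpins the lowest (-1.35), and most other lists with called members have points on both sides of 0.

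Of 42 receptor tyrosine kinases, 4 were called higher in the epithelial lines (9.52%, against 2.24% of all probe sets): Kit, the neuregulin receptor Erbb3 (11.97, 12.07, 8.73 and 8.92), the ephrin receptor Epha1 (9.74, 9.39, 6.58 and 6.41) and, named after its values were seen, Fgfr2 (7.99, 8.03, 6.53 and 6.44). Axl was the single receptor called in the other direction (2.38%, against 1.82% of all probe sets). Among 45 ligands, 1 was called higher in M1 and M2, the EGF family ligand Ereg (5.55, 5.55, 8.98 and 9.80). Gas6, the ligand of Axl, was at 6.50, 6.84, 8.67 and 10.79, without overlap but not called (limma adjusted p = 0.150). Of 17 feedback targets of MAP kinase signalling, 5 were called higher in E1 and E2 (29.4%) and 0 lower: Spry4 (11.51, 11.39, 9.002 and 9.40), Ier3, Phlda1, the phosphatase Dusp6 (13.21, 13.31, 11.57 and 11.75) and Dusp4. Fosl1, an AP-1 subunit of the same list, was at 7.43, 7.96, 10.08 and 12.71 and was not called. Spred3, an inhibitor of the pathway, was likewise 2-fold separated toward M1 and M2 and not called, at 8.50, 8.03, 9.03 and 9.90.

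In the Wnt pathway list of 53 genes, 7 were called higher in the epithelial lines (13.2%) and 2 lower (3.77%). The Dishevelled antagonist Nkd2 was at 11.001, 11.91, 6.24 and 6.47 and the receptors Fzd3 and Fzd9 had differences of 3.13 and 2.25. Apcdd1, a membrane inhibitor of Wnt signalling, ran the other way at 6.55, 6.74, 10.48 and 10.56, as did the ligand Wnt10a (7.96, 7.91, 10.58 and 9.90). In the Notch list of 20, the target Hey1 was at 11.95, 12.16, 6.58 and 6.89, the ligand Dll1 at 11.14, 11.74, 7.48 and 6.54 and the receptor Notch3 at 9.01, 9.62, 6.79 and 6.98, all called higher in E1 and E2. Notch4 was called higher in M1 and M2, at 7.18, 7.51, 9.09 and 9.52. In the Hedgehog list of 13, the ligand Dhh, the co-receptor Gas1 and the receptor and target Ptch1 were called higher in the epithelial lines, with differences of 2.45, 2.07 and 0.99. The target Hhip, which binds the ligands, was 2-fold separated in the other direction at 5.40, 5.77, 12.01 and 9.01, as was the transcription factor Gli3 (9.52, 8.75, 10.41 and 10.22), and neither was called. The median difference of the list was 0.09.

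TGF-beta, BMP and activin genes numbered 43, with 2 called in the epithelial (4.65%) and 4 in the mesenchymal-like direction (9.30%). The activin subunit Inhba was at 7.20, 6.71, 10.77 and 9.64 and its secreted antagonist Fstl3 at 7.56, 8.12, 11.13 and 11.07. The BMP antagonist Chrd was at 6.78, 7.02, 9.86 and 9.16. A ligand subunit and the extracellular antagonists Fstl3 and Chrd were thus higher in the same lines. Bambi, an inhibitory receptor of the pathway, went the other way, with a difference of 2.16. In the guidance list of 47, the semaphorins Sema3a (4.99, 5.01, 10.58 and 11.84) and Sema3d (11.68, 11.10, 5.68 and 5.27), secreted ligands of the same class, differed by similar amounts in opposite directions, -6.21 and 5.92.

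Of 20 genes that answer to glucocorticoids or encode metallothioneins, which bind zinc and copper, 5 were called higher in the mesenchymal-like lines (against 1.82% of all probe sets) and 0 in the epithelial lines. In the mesenchymal-like direction 9 were 2-fold separated, and the median difference was -0.57. The zinc finger factor Zbtb16 was at 6.83, 6.83, 10.49 and 10.56, the immunophilin Fkbp5 at 9.69, 9.15, 11.50 and 11.51, and the leucine zipper protein Tsc22d3 (Gilz) at 8.86, 8.78, 10.96 and 10.81. Glutamine synthetase, Glul, was at 6.04, 5.83, 9.15 and 8.97. These 4 and Mt2 were the called members, and both mesenchymal-like lines were alike in each. The receptor gene itself, Nr3c1, lay between 9.65 and 9.86 in all 4 lines. Mt1, the neighbour and close relative of Mt2, was at 11.14, 7.73, 12.93 and 13.41, so that E1 lay well above E2, and was not called (limma adjusted p = 0.235).

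Enzymes of detoxification and aldehyde metabolism lay higher in M1 and M2 more often than lower, though few were called. Without overlap, 24.0% of all probe sets were higher in the epithelial lines and 24.3% higher in the mesenchymal-like lines. In the glutathione and conjugation list of 43, 26 were higher in both mesenchymal-like lines without overlap and 5 in both epithelial lines, with a median difference of -0.43, but limma called 2 and 1. Glutathione transferases Gsta3 (6.42, 6.14, 11.26 and 8.11) and Gstm1 (10.64, 9.49, 12.47 and 12.28) were 2-fold separated and not called. Cyp1b1, a cytochrome P450 that oxidizes estrogens and aromatic hydrocarbons, was called higher in E1 and E2 at 7.55, 8.10, 5.76 and 5.61. Among 23 aldehyde dehydrogenases and aldo-keto reductases, 12 were higher without overlap in the mesenchymal-like lines and 1 in the epithelial lines. Aldh3a1 was called, at 6.18, 5.90, 11.24 and 11.75. Aldh1a1 was 2-fold separated at 5.61, 5.83, 12.57 and 7.999, with M1 and M2 further apart than M2 and the epithelial lines.

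In lipid metabolism the desaturase family member Fads3 was called higher in M1 and M2 (8.13, 8.23, 12.22 and 12.00), and the elongase Elovl7 (10.48, 10.63, 8.82 and 8.92) and the fatty acid carrier Fabp5 (11.63, 12.05, 10.45 and 10.37) in E1 and E2. Of 20 sterol synthesis genes, 14 lay higher in both mesenchymal-like lines (against 24.3% of all probe sets) and 1 in both epithelial lines (against 24.0%), with a median difference of -0.49 and 0 called. The largest was Insig1, a sterol sensor, at 10.25, 9.40, 11.46 and 11.33. Of 29 glycolysis and hypoxia genes 2 were called (6.90%), both higher in M1 and M2, the bifunctional kinase Pfkfb4 (6.05, 6.22, 8.51 and 9.21) and Ndrg1 (7.12, 7.21, 8.01 and 8.06). The largest difference of this list ran the other way, in the aldolase Aldoc (12.76, 12.60, 9.55 and 6.65), which was not called and was chosen after its values were seen. Prostaglandin synthase Ptgs2 (Cox-2), 1 of 21 genes of its list, was called higher in M1 and M2 at 5.77, 5.80, 10.77 and 9.18. The epithelial amino acid transporter Slc6a14 (8.90, 9.69, 5.13 and 5.54) and the cystine carrier Slc7a11 (9.92, 10.43, 12.45 and 11.93) were called on opposite sides.

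Of 58 enzymes that build glycans, 2 were called higher in the epithelial lines (3.45%, against 2.24% of all probe sets) and 4 in the mesenchymal-like lines (6.90%, against 1.82%). Gcnt1, which makes core 2 branches on O-glycans, was at 10.06, 9.75, 5.67 and 5.75, and Galnt7, which adds sugars at the start of O-glycan chains, at 5.38, 5.86, 10.14 and 10.40. The sialyltransferase St3gal4 was at 6.19, 7.16, 9.97 and 10.10 and the sulfotransferase Chst2 at 6.49, 6.81, 8.74 and 9.30. St8sia6, which is in no list, was at 11.83, 11.62, 4.94 and 4.92, and like St3gal4 it adds sialic acid.

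Immune signalling genes were called in both directions. Of 54 chemokines, cytokines and receptors, 2 were called higher in the epithelial lines (3.70%, against 2.24% of all probe sets), among them the interleukin subunit Il23a (10.81, 10.999, 6.75 and 6.20). In the mesenchymal-like direction 4 were called (7.41%, against 1.82%), among them the neutrophil chemokine Cxcl2 (4.84, 5.33, 7.15 and 7.89). In the complement and coagulation list of 21, tissue factor F3, which starts coagulation, was called higher in E1 and E2 (4.76% of the list) at 11.29, 11.21, 9.17 and 9.16. Coagulation factor F5 (4.86, 5.73, 10.47 and 10.00) and the protein C receptor Procr (6.42, 6.80, 9.95 and 10.01) were called higher in M1 and M2 (9.52%). Interferon-stimulated genes had a median difference of 1.00 over 25 members and 0 calls, and the median was -0.15 without E2 and 2.48 without E1. The list's median levels were 7.34, 10.38, 8.45 and 7.17 in E1, E2, M1 and M2, so that E2 was the highest line and E1 lay below M1. Rsad2 showed this at 6.62, 9.80, 6.50 and 5.98.

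Of 38 genes of mitosis and the spindle, 33 were higher in both mesenchymal-like lines than in both epithelial lines, against 24.3% of all probe sets, and 0 the other way, with differences from -1.42 to -0.14 and a median of -0.68. limma called 0 of them and 6 were 2-fold separated, of which the kinetochore protein Nuf2 (8.03, 8.60, 10.04 and 9.44) and the cyclin Ccnb2 (11.04, 11.60, 12.36 and 12.52) are examples. DNA replication genes had a median difference of -0.22 over 39 members and 0 calls, and leaving out M1 or M2 turned it to 0.14 and -0.55. The Cdk4/6 inhibitor Cdkn2b was called higher in E1 and E2, at 9.91, 9.94, 7.02 and 7.22. The growth of the cultures at harvest is not given in the sources used here.

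Of 24 measured genes on the list of imprinted genes and Xist, 3 were called (12.5%, against 2.24% of all probe sets). All 3 were higher in the epithelial lines. Phlda2, which limits placental growth, was at 11.36, 10.75, 6.36 and 6.79. Peg3 was at 9.69, 9.60, 6.17 and 6.01 and the zinc finger factor Plagl1 at 9.77, 9.32, 5.85 and 6.18. Both epithelial lines were high for each. Grb10 was 2-fold separated in the other direction but not called, at 5.80, 5.85, 5.95 and 9.08, with M2 alone well above the rest. Of 37 Hox genes 1 was called (2.70%, near the 2.24% of all probe sets), Hoxa5, at 9.94, 10.13, 8.79 and 8.72.

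Several large housekeeping families gave 0 called members, against 2.24% and 1.82% of all probe sets. Differences ran from -0.19 to 0.48 in 59 ribosomal proteins and from -0.38 to 0.78 in 39 proteasome subunits. In 80 genes of oxidative phosphorylation they ran from -1.06 to 2.08. Without overlap, 17, 17 and 10 members of these families were higher in the epithelial lines (24.0% of all probe sets). In the mesenchymal-like lines 5, 6 and 15 were higher (24.3% of all). Of the 1015 olfactory receptor genes 0 were called, and 947 of them lay below 6.26 in all 4 lines. Markers of other cell types found in tumors were looked at as a whole. Immune (11 genes), endothelial (10) and adipocyte (7) markers gave 0 calls, with Ptprc at 5.51 to 5.88 and Pecam1 at 5.74 to 5.90. A call compares the types, so that 0 calls does not mean that a marker is absent. The immune marker Cd68 was high in all 4 lines, at 10.7, 8.8, 10.6 and 11.6, and was not called. In each of these lists 1 member was 2-fold separated, always toward M1 and M2. These were the lysozyme Lyz2 (5.08, 5.65, 8.91 and 6.57), the cadherin Cdh5 (5.99, 6.15, 7.58 and 6.72) and the fatty acid carrier Fabp4 (5.26, 5.50, 7.21 and 10.77), and their part in other results was not tested. Of 12 fibroblast markers 1 was called, S100a4, at 6.54, 6.35, 9.93 and 9.99. Pdgfra (7.78, 7.83, 8.71 and 10.2) and Dcn (5.49, 5.62, 10.08 and 5.74) were not called. S100a4, Pdgfra and Dcn were 2-fold separated toward M1 and M2, against 4.92% of all probe sets. No fibroblast marker was 2-fold separated toward E1 and E2, against 4.49% of all probe sets. Each line was grown out as a clone by limiting dilution. An array of a whole line cannot tell the share of cells that express a gene from the RNA per cell.

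The called and 2-fold separated genes were also read in the gene order of GRCm38.p6, without coordinates, since no build is stated for the array values. Among 19856 genes placed in this order, 26 runs of at least 3 consecutive measured genes were all 2-fold separated in the same direction, 11 higher in the epithelial and 15 higher in the mesenchymal-like lines, with 88 genes in all. The longest held 7 serpin genes. Serpinb9 was at 5.24, 5.63, 10.03 and 8.10, Serpinb9b at 6.14, 6.37, 10.99 and 9.01, and Serpinb1b at 4.46, 4.68, 6.80 and 4.88, so that M1 was the highest line for each. Of the 7, 0 were called. Serpins of this clade inhibit granzymes and other intracellular proteases, and over the 17 on their list the median difference was -1.35, with 8 members 2-fold separated in the mesenchymal-like direction. Outside the run, Serpinb1a (5.39, 5.56, 7.16 and 7.72) and Serpinb6a (9.82, 9.89, 11.61 and 11.93) were called in that direction. Serpinb5 (maspin), an epithelial member, was called in the other direction at 9.89, 10.17, 5.63 and 5.15. The median levels of the list were 4.685, 4.887, 6.767 and 5.145 in E1, E2, M1 and M2. M1 was thus the highest line, and M2 lay nearer to the epithelial lines than to M1.

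Other runs in the mesenchymal-like direction were families of defence and transport genes. All 3 genes of the Naip run, sensors of bacterial proteins, were called: Naip2 at 7.59, 7.31, 10.05 and 9.58, Naip5 at 5.05, 4.76, 8.76 and 8.63, and Naip6 at 5.79, 5.15, 8.24 and 7.96. A run of 5 glutathione transferases of the mu class, from Gstm7 to Gstm1, had differences from -1.04 to -2.31 with 0 calls. The acute phase proteins Orm1, Orm2 and Orm3 formed a run, in which Orm3 was called (4.23, 4.61, 8.07 and 8.17). The drug efflux pumps Abcb1a (6.21, 6.07, 9.03 and 8.53) and Abcb1b (7.19, 5.60, 11.01 and 10.30) lay in another, of which the first was called. H60b (5.39, 5.68, 9.28 and 10.82) and Raet1d (4.84, 4.61, 8.90 and 8.24), ligands of the killer cell receptor NKG2D, were both called. Genes of the Naip, Gstm, Orm, Abcb1 and Serpinb9 families are close copies, so that probe sets may read more than 1 member and a run need not count separate events.

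Runs in the epithelial direction mostly joined unrelated genes. Stk26, a kinase of the polarity pathway, was at 10.74, 10.55, 5.13 and 5.75 beside Frmd7 and Rap2c, with differences of 5.21, 1.82 and 1.03. The exchange factor Dock3, the kinase Mapkapk3 and the cytokine signalling inhibitor Cish formed a run of 3 called genes, with differences of 3.10, 1.93 and 2.39. The ubiquitin ligase subunit Fbxo32 (11.40, 11.90, 8.08 and 8.23) was called along with its neighbours Klhl38 and Wdyhv1. B4galnt4, Pkp3 and Sigirr, a glycosyltransferase, a desmosomal plaque protein and an inhibitor of interleukin-1 signalling, formed a further run of called genes.

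**Figure D4:**
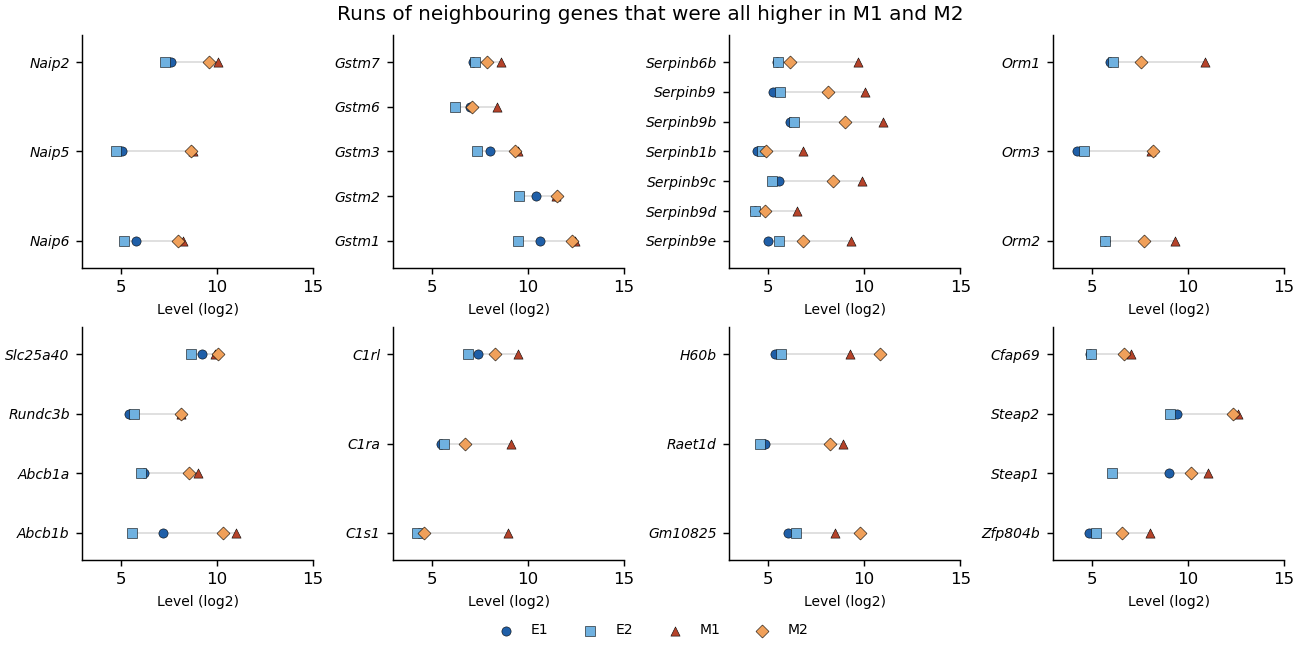
Log2 levels in E1 (circles), E2 (squares), M1 (triangles) and M2 (diamonds) for 8 runs of neighbouring genes that were all higher in M1 and M2, 1 panel per run in gene order. In the Naip panel M1 and M2 lie close together, while in the serpin, Orm1 and C1ra panels M1 stands above M2.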

How the data were processed

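RNA of the 4 clonal lines was measured on Affymetrix MoGene 1.0 ST arrays. The authors deposited normalized log2 levels, from 2.28 to 14.5. The labels name Partek for the processing, and its version, the normalization and the genome build are not given in the sources used here. RNA was prepared with Trizol per the labels and with a column kit per the methods. Array medians were 6.76 (E1), 6.75 (E2), 6.75 (M1) and 6.85 (M2), and the values were not rescaled. A background level is not known, so that folds of genes with a low side near background are only ratios of listed values. The precision is limited by 2 arrays per type.

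Of 35556 probe sets in the platform annotation, 21789 had 1 symbol (19938 genes), 1621 several and 12146 none. These 21789 were tested with limma 3.58.1 in R 4.3.3 (lmFit, eBayes, 2 residual degrees of freedom, two-sided), with Benjamini-Hochberg adjustment over all of them. The test was checked on simulated data. A gene with several probe sets was read from the brightest, and for 0 genes did probe sets oppose each other past 2-fold. Lists are described by counts and medians, with no set test. Names were given to the 5 markers, the sorted antigens, the 15 largest called differences in each direction, up to 5 members of each list with up to 3 opposing ones, whole lists of at most 20, members of neighbour runs and up to 10 unlisted genes in each direction. The markers, lists and rules were chosen with earlier results of these data known. Promoter windows and the gene order are RefSeq's (GRCm38.p6), and windows were matched for 15563 genes. Alternatives covered normalization, dim probe sets, the probe sets tested, the variance model, the threshold, a block and each line left out.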

Additional observations from a re-analysis of the deposited data

How the results depend on the processing

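Counts are given as higher in the epithelial and higher in the mesenchymal-like lines, against 489 and 396 called probe sets. They were 525 and 419 with quantile normalization, 492 and 364 with median centring, 472 and 376 for probe sets above the median, 492 and 401 for those above olfactory receptor levels, 443 and 365 with 1 mean per gene and 502 and 426 with an intensity trend. Values below the median raised to it (6.78) left 154 and 82, all 35556 probe sets gave 387 and 299, and an adjusted p under 0.1 gave 846 and 769. With the clone number as a replicate block, 209 and 151 were called, of which 201 and 139 were among the reported calls. The numbers only name clones, and the deviations of the lines numbered 1 had a correlation of -0.03. Leaving out 1 line gave 0 to 921 and 0 to 1012, with 0 in both directions without E1 or without E2. For the 979 and 1072 probe sets that were 2-fold separated, a fold of 4 gave 447 and 440, separation alone 5234 and 5301, and leaving out 1 line (added after the data were seen) 1055 to 1147 and 1159 to 1243. Of 229 named called genes, 162 were no longer called with the raised floor and 109 with the block. The direction of 0 of the 229 turned under any alternative run. That outcome was largely fixed, since called genes had no overlap between types and several alternatives left the differences unchanged. The median differences of 27 of 55 lists changed sign under some alternative, among them 1 of the 13 lists with a median of at least 0.4 in size, that of interferon-stimulated genes.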

Other observations

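Genes outside the lists added further epithelial biology. Trpv6, a calcium channel of absorptive epithelia, was at 11.37, 11.81, 6.17 and 5.93 in E1, E2, M1 and M2 (5.54, limma adjusted p = 0.0028), and Vtcn1 (B7-H4), an inhibitory ligand for T cells, at 11.68, 11.69, 6.63 and 6.32 (5.21, limma adjusted p = 0.00252). The actin bundler Lcp1, best known from leukocytes, was at 12.09, 12.10, 6.65 and 5.79. Alkal2, a ligand of the receptor kinases Alk and Ltk, was at 11.10, 11.24, 5.81 and 5.84. Both epithelial lines were high for each. Trpv6, Vtcn1 and Alkal2 rank below the unlisted genes of the naming rule and were chosen after their values were seen.

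On the mesenchymal-like side, the paraoxonase Pon3 was at 5.69, 5.66, 11.38 and 10.79, and Pcolce, which helps to cleave procollagen, at 6.64, 7.10, 11.64 and 12.60. Parvb, which links integrins to actin, was at 6.37, 6.43, 10.86 and 11.59 and the lipid monooxygenase Agmo at 4.69, 4.52, 9.36 and 9.52. Pcolce, Parvb and Agmo were chosen after their values were seen. Of the called genes, 115 of 444 in the epithelial and 64 of 361 in the mesenchymal-like direction were in a list, so that most called genes of each type lie outside the families described here. In 141 called probe sets of each direction the mean of the low lines was below 6.26, the olfactory receptor level, where the size of a fold is uncertain.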
